A study of Mus musculus with 20 samples.

Results

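Integrins are cell surface receptors, each a pair of 1 alpha and 1 beta chain, and laminins are trimers of an alpha, a beta and a gamma chain that build the basement membranes to which many integrins bind. Genes of both families were read here as a set of 35 genes: 7 leukocyte integrin chains (Itga4, Itgae, Itgal, Itgam, Itgax, Itgb2 and Itgb7), 18 other integrin chains and 10 laminin chains. They were chosen by gene symbol alone from 27962 gene names on the array, and 78 of the 41174 probes of the array that were not controls carried such a symbol. The brightest probe of each gene over all 20 arrays stands for the gene. Itgad had no probe, and the probe for the laminin beta1 chain, filed under the older symbol Lamb1-1, fell outside the symbols used.

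Leukocyte integrins pair the alpha chains L, M, X, D, E and 4 with the beta2 or beta7 chains and let blood cells adhere to vessel walls and to other cells. Itgam and Itgax, the CD11b and CD11c antigens, are used to tell myeloid cells apart in obese fat. The other chains read collagens, laminins or proteins with an RGD motif such as fibronectin and vitronectin, and in liver they are best known from stellate cells, endothelium and bile duct cells.

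RNA came from liver and white adipose tissue (WAT) of male mice aged 7 months on the C57BL/6 background, kept for 21 weeks on a diet with 35% fat (HFD). WT(HFD) mice were compared with CD44KO(HFD) mice, which come from a CD44-deficient strain backcrossed onto C57BL/6J, with 5 arrays of each genotype in each tissue and no group on normal chow. The label WAT does not name the depot. Nothing in the labels said whether the liver and WAT arrays of 1 number came from 1 mouse. Values are levels on a log2 scale on which 0 is the 75th percentile of the signals of an array, so that they are compared between arrays for 1 probe and not between probes.

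Cd44 itself followed the labels on all 20 arrays. In liver its level was 0.83, 0.64, 0.11, 0.35 and 0.46 in WT(HFD) and -3.79, -4.19, -3.39, -4.06 and -3.24 in CD44KO(HFD). In WAT it was 3.92, 4.19, 4.56, 4.13 and 3.55 in WT(HFD) and -0.35, -0.58, -0.40, -0.53 and -0.67 in CD44KO(HFD). The genotypes stood far apart in both tissues, with differences of -4.21 and -4.57. On the liver arrays 57.4% to 61.9% of the spots were well above background, and on 9 of the 10 WAT arrays 63.2% to 69.5%. The WT(HFD) WAT array of replicate 1 stood apart, with 89.5% of its spots well above background and a correlation of at most 0.886 with its group. On that array the summed level of 8 epididymal epithelial markers (the log2 of their summed linear signals) was 1.18, against -4.39 to -3.72 on the other WT(HFD) WAT arrays. In the WT(HFD) WAT array of replicate 5 the summed level of 16 lymphocyte markers was 4.23, against 1.43 to 2.89 on the other WT(HFD) WAT arrays. Where either array stood apart for a gene whose WAT genotype difference is described, the value without it or its own level is given.

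In liver, 7 of the 31 genes tested were lower in CD44KO(HFD) than in WT(HFD), and 0 were higher (limma, adjusted p under 0.05). Of all 24689 probes tested, 5.75% were called lower and 7.85% higher, and 13.6% in either direction. The 7 genes were the leukocyte chains Itgax and Itgb7, the collagen receptor chain Itga11, the RGD receptor chains Itga8, Itgb3 and Itgb5, and the laminin chain Lama2. Of the 31 genes, 25 had a difference below 0, as did 38.7% of all probes tested. The median difference of the 31 genes was -0.23 against 0.08 over all probes. In bulk tissue, fewer cells of a type and less RNA per cell cannot be told apart. Within the 3 slides, each with both genotypes, the 21 differences of the 7 genes all lay below 0. The 7 genes were picked as lower on these same arrays, so these signs are not a separate check. The number of calls moved with the processing: with normexp background correction, without a filter on dim probes or with the replicate number as a block there were 0, and with all 20 arrays in a single fit there was 1. Without WT(HFD) replicate 2 there were 0, without WT(HFD) replicate 1 or 5 or CD44KO(HFD) replicate 1, 2, 4 or 5 there were 1 or 2, and without CD44KO(HFD) replicate 3 there were 8. With the probe that was brightest in liver itself, 6 genes were lower and 1, Itgb3, was higher.

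**Figure D1:**
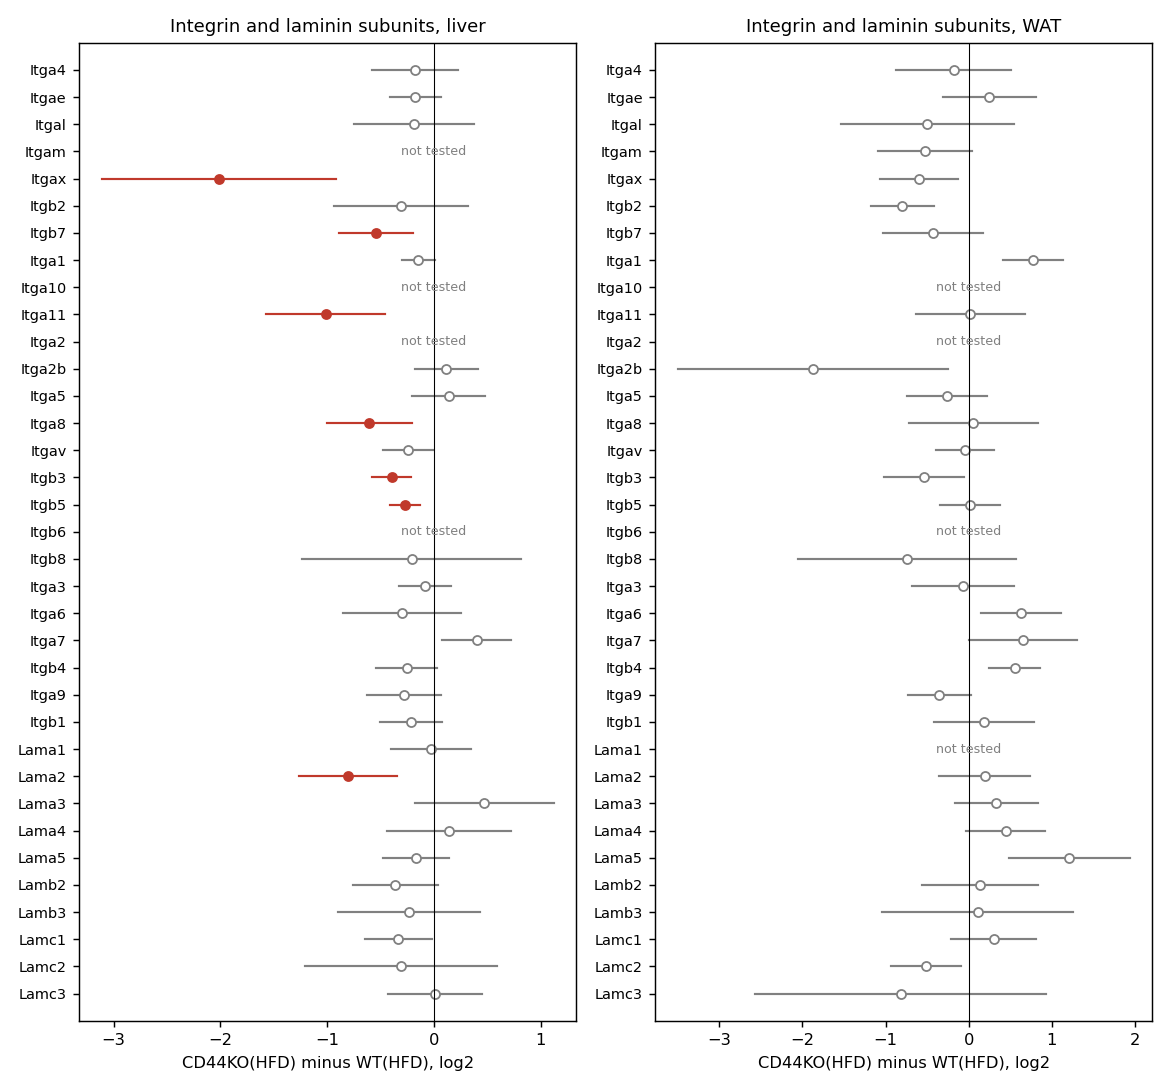
Difference between CD44KO(HFD) and WT(HFD) on the log2 scale for each gene in liver (left) and WAT (right), with 95% intervals from limma and 5 arrays per group. Filled red points (7 in liver, 0 in WAT) had an adjusted p under 0.05, and genes whose probe was too dim are marked as not tested.

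Among the leukocyte integrins of the liver, 2 of 6 tested were called lower, all 6 had a difference below 0, and the median was -0.25, which became -0.46 when CD44KO(HFD) replicate 5 was left out and -0.16 when WT(HFD) replicate 1 was. Itgax, the CD11c chain of dendritic cells and of inflammatory macrophages, had levels of 0.67, 0.07, -0.77, -1.58 and -0.58 on the 5 WT(HFD) arrays. On the CD44KO(HFD) arrays they were -2.63, -3.33, -1.19, -3.20 and -1.91. The groups overlapped through 1 array on each side, WT(HFD) replicate 4 and CD44KO(HFD) replicate 3. The fitted difference was -2.01 ± 0.49 (SE), or 4.04-fold lower (limma, adjusted p = 0.028, and 0.0159 in the exact permutation test). Within the slides it ranged from -2.51 to -1.60. An additional Itgax probe, 16700 bases away, had levels from -4.09 to -3.20 and from -3.71 to -2.69, and differed by 0.15 (adjusted p = 0.68 in limma).

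Itgb7, the partner of the alpha4 and alphaE chains on lymphocytes that home to gut and skin, had WT(HFD) levels of 0.20, -0.04, -0.13, -0.22 and 0.04. The CD44KO(HFD) levels were -0.36, -0.71, -0.16, -1.02 and -0.60, and again only replicate 3 lay within the WT(HFD) range. The difference was -0.54 ± 0.16 (SE, adjusted p = 0.046 in limma). The remaining leukocyte chains Itga4, Itgae, Itgal and Itgb2 had differences between -0.31 and -0.17, with adjusted p from 0.29 to 0.64. Itga4, the VLA-4 chain that binds VCAM-1, had levels of -3.08, -2.96, -3.29, -3.67 and -3.18 in WT(HFD) and of -3.66, -3.54, -2.95, -3.77 and -3.17 in CD44KO(HFD). These groups overlapped over most of their range. Itgam was too dim in liver to be tested, with 2 of 5 WT(HFD) arrays and 0 of 5 CD44KO(HFD) arrays well above background.

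Markers of the cells that carry these chains moved in part with them, and their share in the results was not tested. Of 15 lymphocyte markers tested in liver, 8 were lower in CD44KO(HFD) and 0 higher, with a median of -0.82. Among them Cd8a, the CD8 coreceptor, was lower by a difference of -3.16 and Cd3d, a chain of the T cell receptor complex, by -1.04. The summed level of the list overlapped, from 1.73 to 2.43 in WT(HFD) and from 1.39 to 1.88 in CD44KO(HFD), and 1 and 2 of its 16 genes had no array above background. Of 12 macrophage markers, 0 were lower and 1 was higher, the scavenger receptor Marco, with a difference of 2.95. Their median was 0.06 and their summed level ran from 5.81 to 6.99 in WT(HFD) and from 6.17 to 7.78 in CD44KO(HFD), with no gene at background. Of 5 dendritic cell markers tested 1 was lower, Ccr7, a chemokine receptor, with a difference of -1.08. The median of this list was 0.02. Its summed level overlapped, from -0.63 to 0.19 in WT(HFD) and from -0.44 to 0.06 in CD44KO(HFD).

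**Figure D2:**
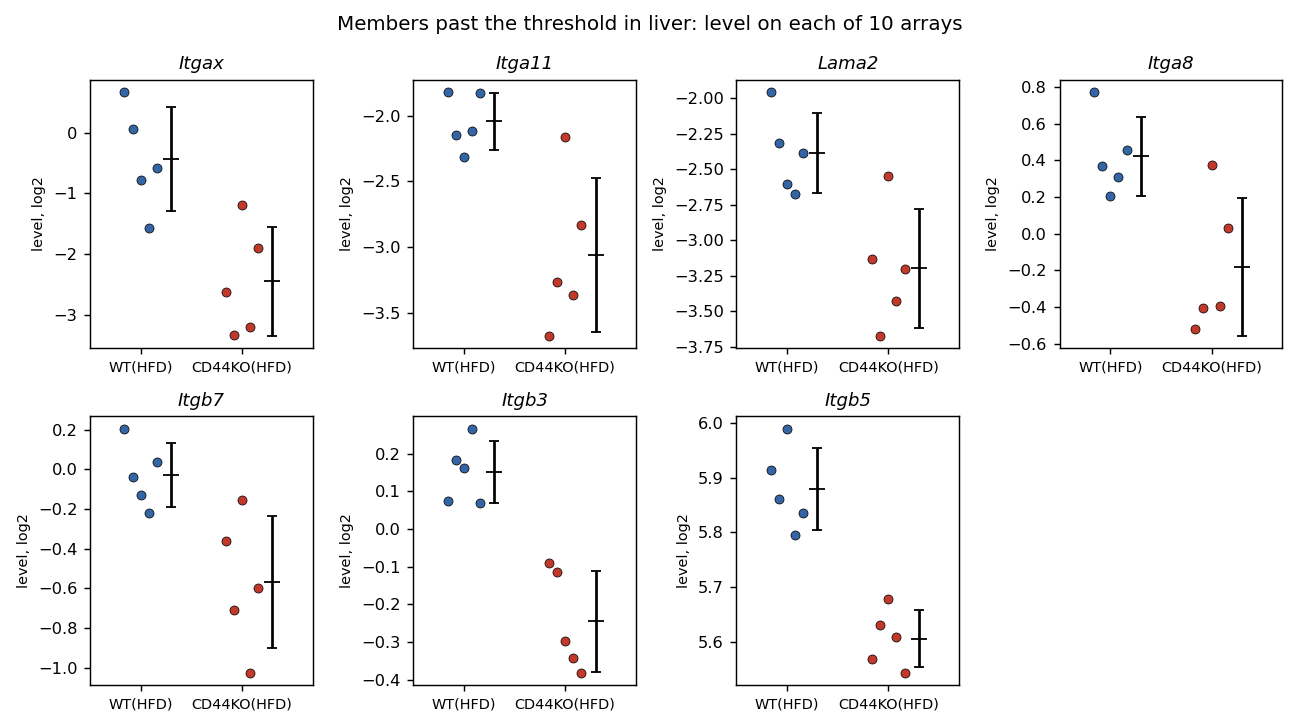
Level (log2, 0 at the 75th percentile of an array) on each of 5 WT(HFD) and 5 CD44KO(HFD) liver arrays for the 7 genes past the threshold, in the order of replicates 1 to 5, with mean and SD as bars. In 6 of the 7 panels the highest CD44KO(HFD) point is replicate 3.

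Itga11, the alpha chain of a collagen receptor made by fibroblasts and activated stellate cells, was lower in CD44KO(HFD) liver. Its WT(HFD) levels were -1.82, -2.14, -2.31, -2.12 and -1.83, and its CD44KO(HFD) levels were -3.67, -3.27, -2.16, -3.36 and -2.83. CD44KO(HFD) replicate 3 lay inside the WT(HFD) range and the other 4 below it. The difference was -1.01 ± 0.25 (SE), or 2.02-fold lower (adjusted p = 0.030 in limma). Itga1, the other collagen receptor chain bright enough to test, differed by -0.15 (adjusted p = 0.17), while Itga2 and Itga10 were too dim in liver to be tested.

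Lama2, the alpha2 chain of the laminin found around muscle, nerve and stromal cells, had WT(HFD) levels of -1.96, -2.32, -2.60, -2.67 and -2.39. In CD44KO(HFD) the levels were -3.13, -3.67, -2.55, -3.43 and -3.20, so that replicate 3 alone lay among the WT(HFD) arrays. The difference was -0.81 ± 0.21 (SE, adjusted p = 0.032 in limma), and the next Lama2 probe gave -0.78 (adjusted p = 0.10). Among the other 9 laminin chains no call was made, with differences from -0.36 for Lamb2 to 0.47 for Lama3 and adjusted p from 0.13 to 0.98. Laminin beta1, read by the Lamb1-1 probe, differed by -0.32 (adjusted p = 0.097).

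Itga8, a chain of stellate cells and kidney mesenchyme whose ligand is nephronectin, had WT(HFD) levels of 0.77, 0.37, 0.20, 0.31 and 0.45. The CD44KO(HFD) levels were -0.52, -0.40, 0.37, -0.39 and 0.03, with replicate 3 again inside the WT(HFD) range. The difference was -0.60 ± 0.18 (SE). Its adjusted p of 0.0499 in limma lay just under the threshold, and its next probe gave -0.56 (adjusted p = 0.082).

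Itgb5, the beta chain of the vitronectin receptor alphavbeta5, showed a small difference without overlap. Its levels were 5.91, 5.86, 5.99, 5.80 and 5.83 in WT(HFD) and 5.57, 5.63, 5.68, 5.61 and 5.54 in CD44KO(HFD). The difference was -0.27 ± 0.06 (SE), or 1.21-fold lower, with an adjusted p of 0.026 in limma and the smallest value that the exact permutation test can give, 0.0079. Groups without overlap in this direction made up 4.22% of all probes tested, and Itgb3 and Itgb5 were the only 2 of the 31 genes. In the other direction there were 0, beside 7.5% of all probes. Itgav, the alpha chain of this receptor, differed by -0.24 with a 95% interval from -0.48 to -0.01 (adjusted p = 0.14).

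Itgb3, the partner of alphav and of the platelet chain alphaIIb, gave opposite results with its 2 probes. The brighter probe, filed under AK135584, had levels of 0.08, 0.18, 0.16, 0.27 and 0.07 in WT(HFD) and of -0.09, -0.11, -0.30, -0.34 and -0.38 in CD44KO(HFD), a difference of -0.40 ± 0.08 (SE, adjusted p = 0.018 in limma). The probe filed under NM_016780 had levels of 0.19, 0.30, 0.49, 1.39 and 0.60 in WT(HFD) and of 2.29, 2.58, 1.01, 2.80 and 2.05 in CD44KO(HFD), a difference of 1.55 ± 0.34 (SE, 2.93-fold higher, adjusted p = 0.021). The first probe separated the genotypes fully, and the second did so except for WT(HFD) replicate 4 and CD44KO(HFD) replicate 3. Over the 10 liver arrays alone the second probe was the brighter, so that the direction of Itgb3 in liver depends on the probe that is chosen. In WAT both probes had differences below 0, -0.54 and -0.34, with adjusted p of 0.29 and 0.35. The difference between the tissues was past the threshold for the NM_016780 probe, at -1.89 ± 0.39 (SE, adjusted p = 0.030), and not for the other (adjusted p = 0.78).

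The first 30 of the 60 bases of each Itgb3 probe, as the files give them, are shown to tell the 2 readings apart. The probes start 3182 bases from each other on the plus strand, at chr11:104779399-104779458 and at chr11:104776217-104776287 of build mm7. No annotation of that build was used here, so their exons are not given.
Itgb3, AK135584 probe: ccacagcaacatcagagtctttgtccattt
Itgb3, NM_016780 probe: tgggactctctgccattatgtttacagagg

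Of 14 genes with several probes tested in liver, 8 moved in 1 direction on all of them and 6 did not (Itga1, Itga3, Itga4, Itgax, Itgb1 and Itgb3). Itga6, a laminin receptor chain of epithelium and endothelium, was not called by its brightest probe, with a difference of -0.30 (adjusted p = 0.44), whereas its NM_008397 probe was, with a mean of -2.80 in WT(HFD) and of -4.00 in CD44KO(HFD) (adjusted p = 0.032). Of the 7 called genes, 4 had another probe tested, and on 0 of these was the call repeated in the same direction.

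**Figure D3:**
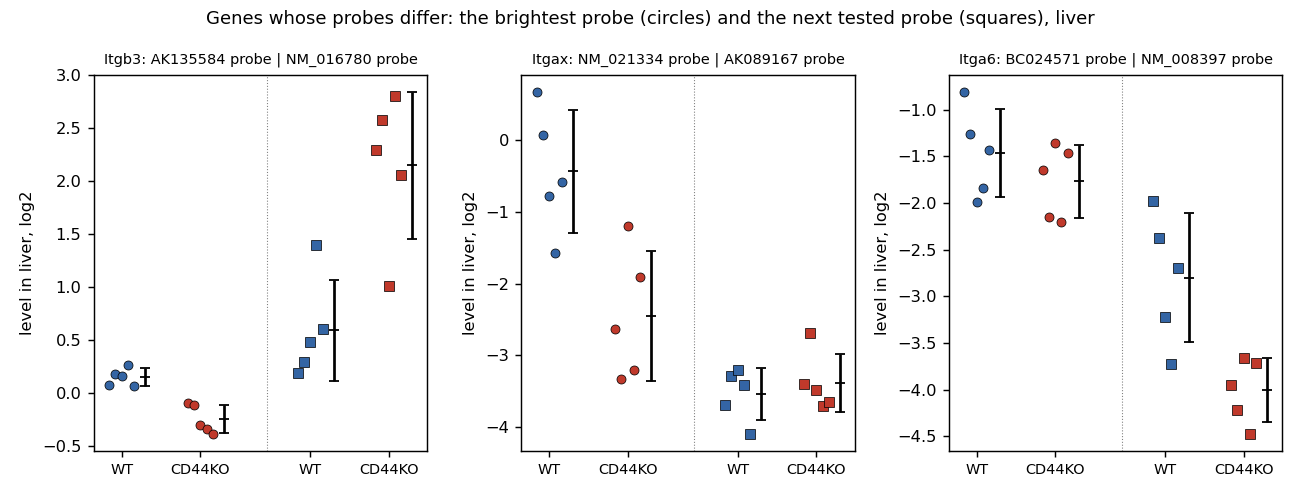
Level (log2) on each liver array for the brightest probe (circles) and the next tested probe (squares) of Itgb3, Itgax and Itga6, 5 arrays per genotype, with mean and SD as bars. The Itgb3 probes move in opposite directions, by -0.40 and 1.55, and the call for Itgax and Itga6 is made by 1 probe of the pair.

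Probes of the other called genes lay, in build mm7, at chr7:124247096-124247155 for Itgax, chr15:102202176-102202235 for Itgb7, chr9:62812215-62812274 for Itga11, chr2:12045993-12046052 for Itga8, chr16:33623560-33623619 for Itgb5 and chr10:26736609-26736668 for Lama2. Cd44, the deleted gene, also lies on chromosome 2. The Itga8 probe was 90.6 Mb from the brightest Cd44 probe, and the nearest genes of the set were Itgav at 19.0 Mb and Itga4 at 23.5 Mb, neither of them called.

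Promoters are shown for Itgax, Itga11 and Lama2, 1 called gene each from the leukocyte, collagen receptor and laminin groups, as the 250 bases before the annotated start in RefSeq (GRCm38.p6). Capitals mark GAGGAA or its reverse TTCCTC, the letters of a PU.1 type Ets site, a myeloid factor's motif. The windows are chr7:128129300-128129549 on the plus strand, chr9:62677605-62677854 on the plus strand and chr10:27616943-27617192 on the minus strand.
Itgax: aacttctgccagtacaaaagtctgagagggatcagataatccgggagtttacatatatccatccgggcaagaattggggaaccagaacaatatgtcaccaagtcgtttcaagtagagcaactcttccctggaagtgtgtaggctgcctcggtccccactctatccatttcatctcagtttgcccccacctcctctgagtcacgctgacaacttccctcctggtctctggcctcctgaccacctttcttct
Itga11: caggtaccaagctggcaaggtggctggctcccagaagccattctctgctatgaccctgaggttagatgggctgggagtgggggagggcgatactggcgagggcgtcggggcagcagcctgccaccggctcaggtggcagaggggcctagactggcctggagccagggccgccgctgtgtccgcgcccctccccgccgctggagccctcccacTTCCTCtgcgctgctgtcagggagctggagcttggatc
Lama2: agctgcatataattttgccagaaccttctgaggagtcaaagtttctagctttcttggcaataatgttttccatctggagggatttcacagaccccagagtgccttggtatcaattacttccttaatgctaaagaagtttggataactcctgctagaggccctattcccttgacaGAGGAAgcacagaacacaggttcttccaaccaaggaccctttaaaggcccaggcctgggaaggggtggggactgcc

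The letters stood in none of the Itgax window, once in that of Itga11 and once in that of Lama2. Over the 22 genes of the set with a promoter in the table, 12 of 25 windows held them on either strand (48%), as did 23.3% of all 32851 windows of this length. Of the genes called in liver, 6 had a window, and 2 of these held the letters (33.3%), those of Itga11 and Lama2. The longer form GAGGAAGT, which contains the shorter, stood in 3 of the 25 windows (Itga11, Itgav and Itgb6) and in 2.44% of all. These are counts of letters and not of bound sites.

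Genes that work with integrins and laminins were read from lists. Of 19 integrin ligands tested in liver, 7 were lower in CD44KO(HFD) and 2 higher, with a median of -0.31. Vcam1, the endothelial ligand of alpha4 integrins, had a difference of -1.16, and the matrix proteins Tnc and Thbs1 had differences of -2.09 and -1.69 (adjusted p = 0.012, 0.018 and 0.021 in limma). Fga, a fibrinogen chain made by hepatocytes, was higher by 0.52. Of 14 basement membrane partners of laminins, 1 was lower, Col15a1 with a difference of -1.26, and 2 were higher, Col18a1 and Col4a6 with differences of 0.27 and 0.61. Of 23 integrin activators and adaptors, 2 were lower, the kinase Src and the leukocyte parvin Parvg with differences of -0.74 and -1.02, and 1 was higher, Ilk, the integrin-linked kinase, with 0.27. In WAT none of these lists had a call in either direction.

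Of 10 stellate cell and fibroblast markers, 4 were lower in CD44KO(HFD) liver and 0 higher, with a median of -0.46, beside the lower Itga11, Itga8 and Lama2. Tagln, an actin-binding protein, had a difference of -0.80, Pdgfrb, the PDGF receptor of stellate cells, -0.83, and Col1a2, a collagen I chain, -1.67. The summed level of the list ran from 6.76 to 7.24 in WT(HFD) and from 6.23 to 6.70 in CD44KO(HFD), without overlap and with no gene at background. Endothelial markers had 0 calls among 9, with a median of 0.30. Of 5 biliary epithelial markers tested 2 were lower, and the summed level of the list ran from 4.24 to 6.29 in WT(HFD) and from 3.18 to 4.29 in CD44KO(HFD), with a small overlap. This list includes Spp1 (osteopontin), which the paper reports as less induced in CD44KO liver. In WT(HFD) WAT the same sum ran from 3.44 to 5.09. Of 7 platelet and megakaryocyte markers 1 was lower, Pf4, with a difference of -1.37. Hepatocyte and neutrophil lists had 1 higher gene each (of 7 and 5), the adipocyte, mesothelial and Schwann cell lists 1 lower gene each (of 5, 3 and 6), and the mast cell and epididymal lists none (of 5 and 2). The summed adipocyte level fell outside the WT(HFD) range of 6.53 to 6.91 on all 5 CD44KO(HFD) arrays, at 4.03 to 6.35. The adipocyte list includes Cidec, which the paper reports as a lipid accumulation gene reduced in CD44KO(HFD) liver. A summed level follows its brightest genes. The adipocyte sum is therefore not a measure of fat cells in liver, nor the biliary sum of bile duct cells. The share of these cells in the results was not tested.

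In WAT, 0 of the 31 genes tested were called (limma, lowest adjusted p 0.17), in a comparison that called 0.0398% of 27653 probes, 11 in all, with 0.0289% lower and 0.0108% higher. At an unadjusted p under 0.05 there were 10 of the 31, and 4111 of all probes. The median difference was -0.50 over 7 leukocyte integrins and 0.08 over the other 24 genes, against -0.06 over all probes. Without WT(HFD) replicate 5 the first median was -0.21. The second turned to -0.028 without CD44KO(HFD) replicate 2 and to -0.030 without WT(HFD) replicates 1 and 5 together. With array weights the count was 10, 5 lower and 5 higher, and with all 20 arrays in a single fit it was 4.

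Itgb2, the common beta chain of the CD11 integrins, lay between 3.86 and 4.21 in WT(HFD) WAT and between 2.71 and 3.47 in CD44KO(HFD) WAT. The groups did not overlap, with a difference of -0.80 and a 95% interval from -1.18 to -0.42 (adjusted p = 0.17). Lama5, the alpha5 chain of endothelial and epithelial basement membranes, lay between -1.16 and 0.12 in WT(HFD) and between 0.51 and 1.90 in CD44KO(HFD), a difference of 1.21 with an interval from 0.48 to 1.94 (adjusted p = 0.19). In all, 2 genes lay lower without overlap (Itga2b and Itgb2) and 4 higher (Itga1, Itga6, Itgb4 and Lama5), beside 2.07% and 4.1% of all probes. Itga2b, the platelet alphaIIb chain, had a difference of -1.87, and of -1.09 without WT(HFD) replicate 1. Itga1 and Itga6 had differences of 0.78 and 0.63, and of 0.69 and 0.45 without that array. On the NM_008397 probe of Itga6 the groups overlapped, from 0.71 to 1.64 in WT(HFD) and from 0.77 to 1.86 in CD44KO(HFD). Its lowest CD44KO(HFD) array was replicate 3. Endothelial markers in WAT moved the same way as the 4 higher genes, with 0 calls among 9 and a median difference of 0.43. Their summed level ran from 3.42 to 4.33 in WT(HFD) and from 4.54 to 5.30 in CD44KO(HFD), without overlap and with no gene at background. Their part in these levels was not tested. Within the WAT slides that held both genotypes, the differences were -0.93 and -0.79 for Itgb2, 1.90 and 0.64 for Lama5 and 1.04 and 0.63 for Itga1, while the third slide held CD44KO(HFD) alone.

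Itgax levels in WAT were 4.65, 4.95, 4.82, 4.94 and 3.99 in WT(HFD) and 4.04, 3.79, 4.37, 4.0 and 4.16 in CD44KO(HFD). WT(HFD) replicate 5, the array with high lymphocyte markers, lay among the CD44KO(HFD) arrays. The difference was -0.60 ± 0.21 (SE, adjusted p = 0.25 in limma), and -0.77 without that array. Itga4 levels were -0.80, -1.16, -1.0, -1.35 and -1.24 in WT(HFD) and -0.64, -1.57, -2.38, -0.80 and -1.07 in CD44KO(HFD), and overlapped (difference -0.18, adjusted p = 0.78). The other 4 Itga4 probes tested in WAT had differences of -0.82, -0.53, -1.10 and -1.05 (adjusted p from 0.17 to 0.76 in limma), and the groups of the first did not overlap. WT(HFD) replicate 1 was the highest array of its group on all 4. On the second it stood at -1.49, against -6.49 to -5.62 on the other WT(HFD) arrays and -6.23 to -5.19 in CD44KO(HFD). On the last it stood at -2.06, against -4.34 to -3.86 and -5.45 to -4.22. The size of both differences, and the direction of the second, are therefore not settled. On the AK135584 probe, Itgb3 levels were 0.04, 0.33, 0.65, 0.42 and -0.33 in WT(HFD) and -0.61, -0.18, 0.08, -0.50 and -0.37 in CD44KO(HFD), where WT(HFD) replicates 1 and 5 lay within the CD44KO(HFD) range.

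WT(HFD) WAT replicate 5 carried the highest WAT values of Itgal, the LFA-1 chain of lymphocytes, and of Itgb7. Itgal stood at 1.12 there, against -1.57 to -1.0 on the other WT(HFD) arrays and -1.65 to -1.2 on the CD44KO(HFD) arrays. Itgb7 stood at 2.59, against 1.13 to 1.42 and 0.82 to 1.30. Mast cell markers moved with the genotype in WAT, where 9 genes had a median difference of -3.08, 0 calls and a summed level from 4.27 to 5.54 in WT(HFD) and from 0.75 to 3.52 in CD44KO(HFD). Lymphocyte markers had 0 calls among 16 genes and a median difference of -1.19. Their summed levels overlapped, from 1.43 to 4.23 in WT(HFD), highest on replicate 5, and from 0.97 to 1.91 in CD44KO(HFD). Macrophage markers had a median difference of -0.33 and summed levels from 8.15 to 8.68 and from 8.21 to 8.59. The part of these cells in the integrin levels was not tested.

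The difference between the genotype effects in WAT and in liver was tested for 32 genes, and 2 were past the threshold, both with the higher effect in WAT, where 1.15% of 28988 probes were called, 0.873% with the higher effect in WAT and 0.279% with the lower. Itga1, a collagen receptor chain of stromal, endothelial and smooth muscle cells, had liver levels of -1.02, -1.15, -1.13, -1.09 and -1.04 in WT(HFD) and of -1.15, -1.12, -1.24, -1.31 and -1.35 in CD44KO(HFD). In WAT the levels were -2.21, -1.81, -1.66, -1.76 and -1.79 in WT(HFD) and -1.34, -0.74, -1.12, -0.98 and -1.15 in CD44KO(HFD). The liver groups overlapped and the WAT groups did not. The genotype effect was -0.15 in liver and 0.78 in WAT, and the difference between them was 0.93 ± 0.17 (SE, adjusted p = 0.017 in limma). The AK040830 probe gave 1.12 ± 0.25 (SE, adjusted p = 0.038), whereas the 2 others were not past the threshold.

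Itgb4, the beta4 chain of the laminin receptor in hemidesmosomes and in nerve sheaths, had liver levels of -1.73, -1.69, -2.33, -1.74 and -1.70 in WT(HFD) and of -1.93, -2.16, -2.11, -2.08 and -2.21 in CD44KO(HFD). Its WAT levels were -0.16, -0.19, -0.42, -0.28 and 0.01 in WT(HFD) and 0.37, 0.48, 0.53, 0.16 and 0.18 in CD44KO(HFD). In liver only WT(HFD) replicate 3 lay below the CD44KO(HFD) arrays, and in WAT the groups did not overlap. The effects were -0.26 and 0.55, and their difference was 0.81 ± 0.18 (SE, adjusted p = 0.043 in limma). Both calls were lost with normexp correction and with the replicate block, that of Itga1 also with quantile normalization and that of Itgb4 also without the filter on dim probes. Of 20 fits that left out 1 array, Itga1 passed in 20 and Itgb4 in 7.

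**Figure D4:**
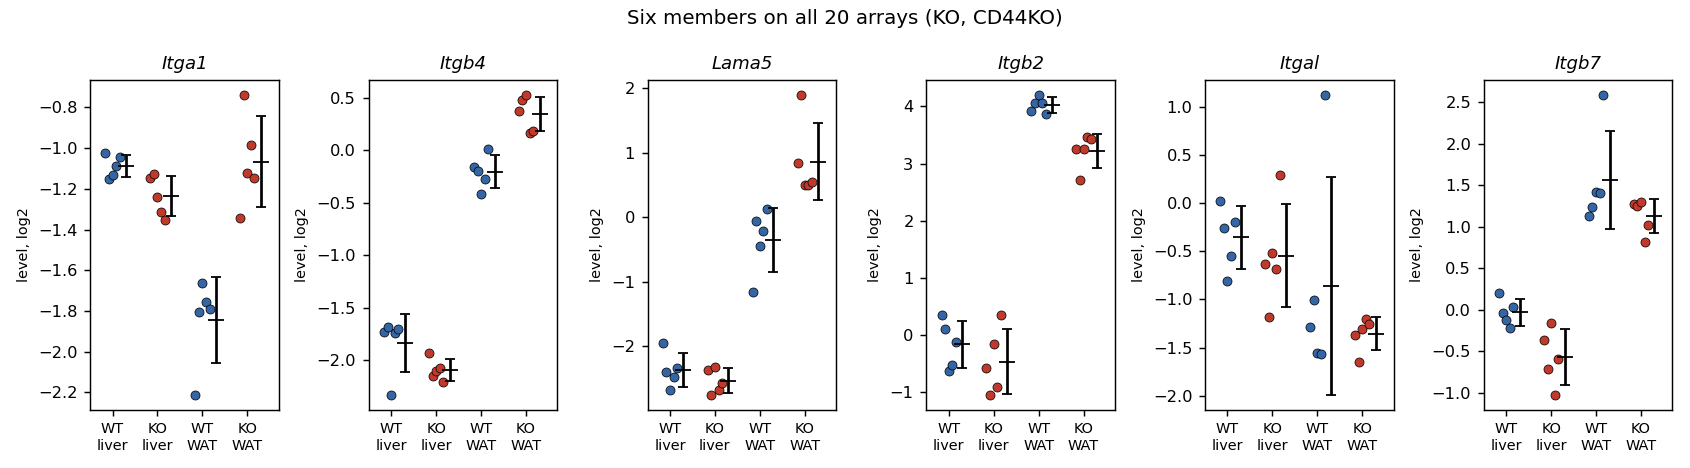
Level (log2) of Itga1, Itgb4, Lama5, Itgb2, Itgal and Itgb7 on each of the 20 arrays, 5 per genotype and tissue in the order of replicates 1 to 5, with mean and SD as bars. Itga1 and Itgb4 are higher in CD44KO(HFD) WAT without overlap, and WT(HFD) WAT replicate 5 stands apart for Itgal (1.12) and Itgb7 (2.59).

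WT(HFD) liver and WT(HFD) WAT were compared to show where the 2 tissues carry these chains. Of 32 genes, 18 were lower in liver than in WAT and 7 higher (limma), where 33.5% and 34.7% of 28364 probes were called, 68.3% in all. Slides held 1 tissue each, so that slide and tissue cannot be told apart. Leukocyte chains were among the lower genes, with differences of -5.11 for Itgax and -4.19 for Itgb2. Itgam had a fitted difference of -6.02, but only 2 of its 5 liver arrays were well above background, so that the size of this difference is not settled. Itgae, the alphaE chain of lymphocytes within epithelium, was higher in liver by 1.30, although its second probe gave -2.03 (adjusted p = 0.031 in limma). That probe was dim in WT(HFD) liver, at -6.98 to -5.60. In WAT its replicate 1 stood at -1.45, against -5.68 to -4.44 on the other WT(HFD) arrays, so that the size of -2.03 is not settled.

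Among the stromal chains, the collagen receptor Itga11 differed by -4.30, and the laminin receptor chains Itga6 and Itga7 by -4.57 and -2.95. The laminins of vessels and fat cells, Lama4, Lamc1 and Lamb2, differed by -3.36, -2.91 and -2.48. Higher in liver were Itga8 by 3.51 and Lamb3, an epithelial chain, by 2.45, or by 2.91 without WT(HFD) WAT replicate 1. Lama1, an early embryonic laminin chain, had a fitted difference of 3.37, but of the 5 WT(HFD) WAT arrays it was bright enough to measure on replicate 1 alone, and the size of this difference is not settled either. On their brightest probes Itgb5, Itgb3 and Lama3 had differences of 0.07, -0.07 and -0.05, with adjusted p from 0.69 to 0.85. Other probes of Itgb3 and Lama3 stood higher in liver without overlap. The NM_016780 probe of Itgb3 ran from 0.19 to 1.39 in WT(HFD) liver and from -1.59 to -1.22 in WT(HFD) WAT. A second Lama3 probe ran from -2.93 to -2.28 in liver and from -6.13 to -3.39 in WAT.

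**Figure D5:**
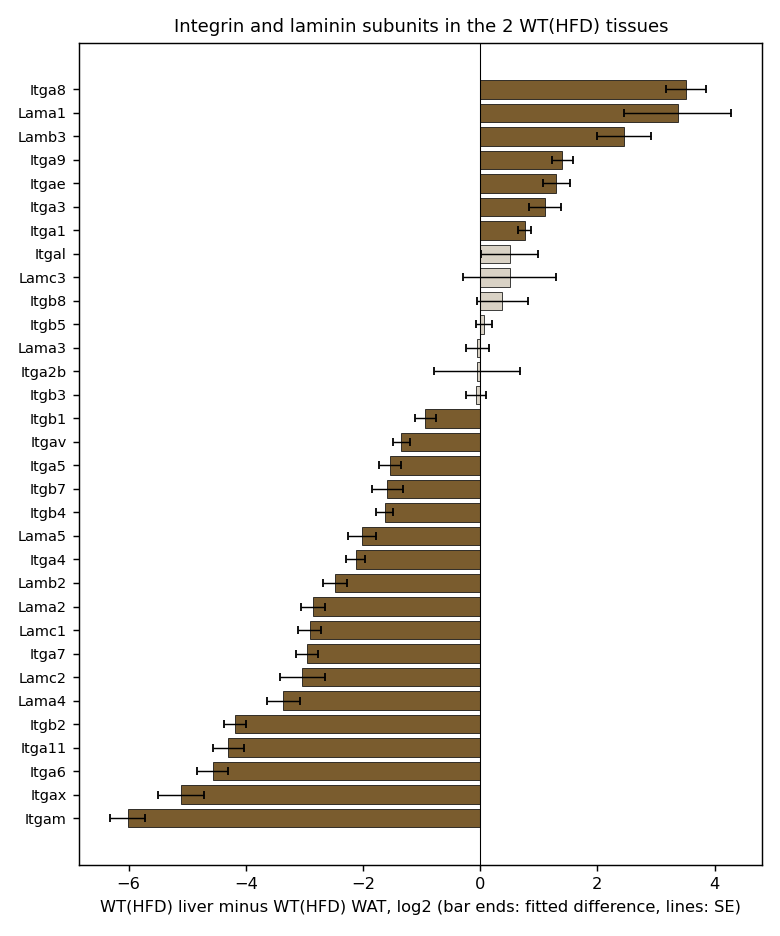
Difference between WT(HFD) liver and WT(HFD) WAT on the log2 scale for 32 genes, with the SE as lines and 5 arrays per tissue. Dark bars had an adjusted p under 0.05, and their differences ran from -6.02 for Itgam, measured on 2 of 5 liver arrays, to 3.51 for Itga8.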

How the data were processed

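Total RNA of liver and WAT was read on 20 single-dye Agilent mouse arrays. The authors deposited processed signals, which are linear fluorescence intensities from Agilent Feature Extraction (9.5.3.1 per the file headers), without scaling between arrays, and a normalization or test for them is not given in the sources used here. After removal of outlier spots, the log2 of each signal was set against the 75th percentile of its array, and replicate spots of 1 probe gave 1 mean. A probe entered a comparison if it was well above background on 3 or more of the 5 arrays in 1 of the groups. Tests used limma 3.58.1 (R 4.3.3), and p-values were adjusted by the method of Benjamini and Hochberg across every probe that entered, with a threshold of 0.05. For single genes an exact permutation test (two-sided) ran over 252 relabellings, so that its smallest p is 0.0079. The limma code was tested on simulated data.

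Members and lists were chosen by symbol with earlier results of these data known. Levels on every array are given for genes past the threshold in liver, in WAT or in the difference between tissues, for Cd44 and for Itgax, Itga4 and Itgb3, and at most 4 genes of a list are named, those with the lowest p. Other genes are given by range and count, and the choice of those named with values came after seeing them. The lists were integrin ligands, activators and adaptors, basement membrane partners, and markers of 14 cell types. The design states 5 mice per genotype, and the labels do not tie arrays to mice. The number of arrays limits precision. Alternatives were normexp background (offset 50), quantile normalization, other filters, the slide or the replicate number as a block, array weights (statmod 1.5.0), all 20 arrays in 1 fit, the series value table, other probes and leaving out each array.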

Additional observations from a re-analysis of the deposited data

Results flagged for a closer look

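The values of each gene in each group of 5 arrays were compared, and in 14 of 128 groups 1 array lay far from the other 4, where chance gives about 1 group in 20. WT(HFD) WAT replicate 1 stood apart for Itga2b (-0.0023, the others from -4.48 to -3.55), Lamb3 (-0.18, from -2.73 to -2.28), Lamc3 (-1.40, from -6.22 to -5.04), Itga1 (-2.21, from -1.81 to -1.66) and Itga6 (2.38, from 3.20 to 3.37). WT(HFD) WAT replicate 5 stood apart for Itgal (1.12), Itgb7 (2.59) and Itgav (0.34, from 0.75 to 0.81). WT(HFD) liver replicate 3 stood apart for Itga9 (-1.63, from -1.10 to -0.96), Itgb1 (1.53, from 0.91 to 1.08), Itgb4 (-2.33, from -1.74 to -1.69) and Lama4 (-2.30, from -1.29 to -0.99). CD44KO(HFD) WAT replicate 2 stood apart for Itgb2 (2.71, from 3.25 to 3.47) and Lama5 (1.90, from 0.51 to 0.85).

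The effect of the genotype differed between WAT and liver for Itga1, by 0.93, and for Itgb4, by 0.81, in the limma test of that difference.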

How the results depend on the processing

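The 7 calls in liver numbered 0 with normexp correction, 0 without the filter on dim probes, 0 with the replicate block and 1 with all 20 arrays in 1 fit, and between 0 and 8 when 1 array was left out. Across the genotypes, the correlation of same-numbered arrays ran from -0.04 to 0.42 (liver) and from -0.21 to 0.09 (WAT). The best match bore the same number for 1 of 5 arrays in liver and for 0 of 5 in WAT. These few correlations show no clear pairing by replicate number and cannot exclude a weak one. In WAT the 0 calls numbered 10 with array weights and 4 with all 20 arrays in 1 fit. The 2 differences between tissues numbered 0 with normexp correction, 1 with quantile normalization, 1 without the filter, 0 with the replicate block, 4 with array weights and from 1 to 3 without 1 array. The 25 differences between WT(HFD) tissues numbered 25 to 27 over all alternatives but the removal of both WT(HFD) WAT replicates 1 and 5, an alternative chosen after seeing the data, which gave 29. The median of the other integrins and laminins in liver was -0.016 with normexp correction. The median of leukocyte integrins in WAT was -0.21 with array weights, -0.23 without both arrays and from -0.54 to -0.21 without 1 array. That of the other integrins and laminins in WAT turned from 0.08 to -0.030 without both arrays, and ran from -0.028 to 0.16 without 1. Directions turned for Itga4 in liver (0.11 with normexp correction, 0.0093 on another probe) and in WAT (0.0098 with quantile normalization, 0.13 with array weights, 0.093 without CD44KO(HFD) replicate 3), none of them called. Other probes turned the direction of Itgax (0.15) and Itgb3 (1.55) in liver, the latter also with the brightest probe of the tissue (1.55), of Cd44 in liver (0.20, a dim probe), of Itga1 (-0.34) and Itga6 (-1.23) in WAT, of Itga1 (-0.51) and Itgb4 (-1.34) in the difference between tissues, and of Itga1 (-0.30), Itga4 (1.01) and Itgae (-2.03) between WT(HFD) tissues. On the Itga1 probe of -0.34 and -0.51, WT(HFD) WAT replicate 1 stood at -1.16. The other WT(HFD) WAT arrays stood at -5.37 to -4.73 and the CD44KO(HFD) WAT arrays at -4.79 to -4.33. These 2 turns therefore rest on that array. On the Itgb4 probe of -1.34, WT(HFD) WAT replicates 1 and 5 stood at -3.06 and -4.75, against -8.46 to -6.88 on the others. The causes were not tested. Dim probes such as those of Itgam in liver and of Itga2, Itga10 and Itgb6 in both tissues limit what could be measured.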
